A study of Mus musculus with 2 samples.

Results

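The genes of the enzymes that write the H3K4me3 mark were examined for their own H3K4me3 in macrophages that had been derived from bone marrow of the mouse strain C57BL/6J. The set holds 10 of the 21938 protein-coding genes of GENCODE M21: 6 genes of catalytic subunits (Kmt2a, Kmt2b, Kmt2c, Kmt2d, Setd1a and Setd1b) and 4 genes of the core that all of these complexes share (Ash2l, Wdr5, Rbbp5 and Dpy30). They were chosen by name. All peaks within 10 kb of any annotated transcript start of each gene were taken from the list of each replicate and from 2 lists made from both replicates. The cells were primary macrophages grown from bone marrow, with no stimulus, no genetic change named in the labels, and unknown or uncollected age and sex. The study had 1 group with 2 biological replicates, entered as different cell preparations from 1 donor record, and 10 ng of DNA started each library. Whether the preparations came from different animals is not stated, so the spread between them may be technical.

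H3K4me3 is trimethylation of lysine 4 of histone H3, a modification of nucleosomes around the starts of active and poised genes. It is laid down by complexes of the COMPASS and MLL family, in which a SET-domain enzyme works only poorly until the core subunits bind it. Setd1a and Setd1b are the enzymes chiefly linked to trimethylation at promoters, Kmt2a (MLL1) and Kmt2b (MLL2) act at selected promoters, and Kmt2c (MLL3) and Kmt2d (MLL4) are best known for monomethylation at enhancers. Nucleosomes with the mark usually lie on both sides of a start, around a stretch that is poor in nucleosomes.

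Replicate 1 had 20031 peaks and replicate 2 had 16376, and the list from the pooled alignments had 18898. The replicated list had 16957, of which 16890 lines were the same as lines of the pooled list. A gene counted as marked if both replicates had a peak touching the 1 kb on either side of any of its starts, which held for 10869 coding genes (49.5%). Macrophage markers were marked at 10 of 10 genes, Csf1r, Spi1 and Lyz2 among them, against 1 of 24 markers of T cells, B cells, neutrophils, erythroid cells and fibroblasts. That 1 was Klf1, an erythroid factor, with a fold of 14.39 in replicate 1 and 4.31 in replicate 2. Peak lists hold no reads, so depth is unknown, and with 1 group there is no comparison between conditions. Values are therefore descriptions, set beside the same values over all 10869 marked genes.

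All 10 genes were marked in both replicates, and in the pooled and the replicated list too, against the background of 49.5% of coding genes. The joined domain held at least 2 peaks in both replicates at 8 of 10 genes, all 6 catalytic genes with Ash2l and Wdr5, against 29.0% of marked genes. Dpy30 was split in replicate 2 only, and Rbbp5 had 1 unbroken peak in each. The first marked start of Kmt2a, Kmt2b and Kmt2c, that is the start farthest 5′ with a peak of each replicate within 1 kb, had no peak on it in either replicate, a share of the 10 genes close to the 29.5% of marked genes. In the median, core genes had narrower domains when gaps of up to 1 kb were joined, and a higher rank of fold. The groups overlapped in both, and the direction of the width difference depended on how far apart peaks were joined.

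The promoter sequences show how unlike these starts are. They are given because the stretches without a peak on the start are rich in G and C, and because Dpy30, like Ash2l, is marked at internal starts only. Each run is read 5′ to 3′ on the strand of the gene, from the RefSeq promoter table of GRCm38.p6, and ends just before the first base of the transcript. Capitals mark CpG dinucleotides. Kmt2a (chr9:44881297-44881539, minus strand) has 29 CpG in 243 bases with 77.4% GC, and Kmt2c (chr5:25498784-25499033, minus strand) has 48 in 250 bases with 91.6% GC. No base of either lay in a peak of either replicate. Rbbp5 (chr1:132477117-132477364, plus strand) has 10 CpG in 248 bases with 39.5% GC, and all 248 bases lay in the peak of each replicate. Kmt2d and Wdr5, whose sequences are not printed, lay between these in GC. Kmt2d had 67.6% GC, with 246 of 250 bases in peaks of replicate 1 and 165 in replicate 2. Wdr5 had 54.4% GC, with 250 of 250 bases in replicate 1 and 236 in replicate 2.
Kmt2a: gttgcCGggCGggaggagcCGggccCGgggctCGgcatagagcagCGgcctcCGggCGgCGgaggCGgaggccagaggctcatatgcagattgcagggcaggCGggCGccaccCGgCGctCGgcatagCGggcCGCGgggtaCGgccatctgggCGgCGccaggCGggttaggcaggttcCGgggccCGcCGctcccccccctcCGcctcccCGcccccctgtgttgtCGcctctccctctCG
Kmt2c: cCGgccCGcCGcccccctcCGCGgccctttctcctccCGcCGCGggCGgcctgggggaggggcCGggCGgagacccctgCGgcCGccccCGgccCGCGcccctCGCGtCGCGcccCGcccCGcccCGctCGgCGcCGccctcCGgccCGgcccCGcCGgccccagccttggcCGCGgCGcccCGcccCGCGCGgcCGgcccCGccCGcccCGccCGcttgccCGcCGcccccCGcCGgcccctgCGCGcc
Rbbp5: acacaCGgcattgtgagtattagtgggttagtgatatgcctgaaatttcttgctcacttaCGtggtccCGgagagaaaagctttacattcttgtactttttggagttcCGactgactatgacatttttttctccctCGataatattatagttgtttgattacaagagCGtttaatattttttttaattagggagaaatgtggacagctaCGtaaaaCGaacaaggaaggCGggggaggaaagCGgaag

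Dpy30 is shown at 2 starts. Upstream of the 5′ end of the gene (chr17:74323945-74324194, minus strand) there is 1 CpG in 250 bases with 40% GC, and no base lay in a peak. Upstream of the first marked start, 7481 bp into the gene (chr17:74316464-74316683, minus strand), there are 15 CpG in 220 bases with 63.2% GC. All 220 of these bases lay in the peak of replicate 1 and 204 in peaks of replicate 2.
Dpy30, 5′ end: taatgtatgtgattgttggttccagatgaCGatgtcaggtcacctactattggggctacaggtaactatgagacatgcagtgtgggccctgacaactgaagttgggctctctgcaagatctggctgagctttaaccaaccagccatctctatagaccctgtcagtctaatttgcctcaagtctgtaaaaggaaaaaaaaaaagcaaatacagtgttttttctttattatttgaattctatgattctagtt
Dpy30, marked start: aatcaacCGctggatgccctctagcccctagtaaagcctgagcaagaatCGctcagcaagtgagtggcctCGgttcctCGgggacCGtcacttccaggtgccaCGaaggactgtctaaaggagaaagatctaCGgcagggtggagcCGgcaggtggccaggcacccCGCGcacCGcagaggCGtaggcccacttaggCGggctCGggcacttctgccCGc

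Kmt2a encodes the MLL1 methyltransferase, known for keeping Hox genes active and as a target of leukaemia translocations. Its gene lies at chr9:44803355-44881296 on the minus strand, and 2 of its 4 annotated starts were marked. In replicate 1 a peak ran from 223 to 2264 bp downstream of the start with a fold of 49.51. A second peak ran from 1999 to 325 bp upstream with a fold of 38.3. In replicate 2 the downstream peak ran from 335 to 2086 bp with a fold of 22.84 and the upstream peak from 1999 to 368 bp with a fold of 13.57. Both replicates thus left the start itself bare and placed the higher peak inside the gene. The outer edge of the upstream peak was at the same base in both replicates, and that peak covered the start of AC061963.1, an antisense RNA that begins 432 bp upstream. The peak inside the gene covered another annotated start of Kmt2a. With the peaks joined over gaps of up to 1 kb, the domain was 4264 bp wide in replicate 1 and 4086 bp in replicate 2 (4175 ± 125.9 bp, SD, n = 2). This mean was at percentile 96.1 of the marked genes.

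Kmt2b, the MLL2 gene (chr7:30568858-30588726, minus strand), had the same arrangement on a smaller scale. The peak inside the gene ran from 208 to 1413 bp in replicate 1 and from 281 to 1258 bp in replicate 2, with folds of 51.56 and 21.8. The peak upstream ran from 1177 to 197 bp and from 1231 to 286 bp, with folds of 36.24 and 15.53. It covered the start of the microRNA gene Mir3569, 654 bp upstream. The joined domain was 2591 bp wide in replicate 1 and 2490 bp in replicate 2, while no peak at its promoter exceeded 1206 bp. Its widest peak was thus at percentile 25.5 and its joined domain at percentile 74.8 of the marked genes. A further peak, with a fold of 60.35 in replicate 1 and 24.8 in replicate 2, fell within 10 kb of an internal start but covered the starts of the neighbours Psenen, U2af1l4 and Gm49396.

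Kmt2c, the MLL3 gene (chr5:25271798-25498783, minus strand), had the lowest rank of fold of the 10 at its highest promoter peak. In replicate 1 there were 4 peaks, and in replicate 2 there were 3. The peak inside the gene ran from 583 to 2116 bp with a fold of 36.99 in replicate 1 and from 660 to 1899 bp with a fold of 12.92 in replicate 2. On the upstream side there were 2 peaks in each replicate, with folds of 36.24 and 19.62 in replicate 1 and 11.62 and 7.96 in replicate 2. They lay around the lincRNA gene 4831440E17Rik, which begins 284 bp upstream. The remaining peak of replicate 1, from 35 to 429 bp downstream, had a fold of 5.23 and a −log10 q of 11.2, and was absent from the 3 other lists. It filled the middle of the domain. In replicate 2 the nearest peaks on either side of the start lay 1014 bp apart, just over the joining distance of 1000 bp. The joined width was accordingly 3995 bp in replicate 1 and 1496 bp in replicate 2 (2745.5 ± 1767.1 bp, SD, n = 2), with the highest peak of replicate 2 left outside it. In the pooled and replicated lists the gap was 911 bp and the domain 3979 bp.

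Kmt2d encodes MLL4, the enhancer methyltransferase (chr15:98831669-98871204, minus strand). Its start was covered in both replicates by a wide peak of 2806 bp with a fold of 43.9 in replicate 1 and 2400 bp with a fold of 17.49 in replicate 2. The summit was 315 bp downstream of the start in both. A second peak upstream, from 1860 to 449 bp and from 1774 to 613 bp, covered the starts of Gm49437 and of the lincRNA gene 5730414N17Rik, with folds of 28.14 and 10.88. Replicate 1 had a further weak peak from 2958 to 3630 bp with a fold of 6.54, which appeared in the pooled list (fold 3.84) but neither in replicate 2 nor in the replicated list. The joined domain was 5491 bp wide with this peak in replicate 1 and 4008 bp without it in replicate 2. The mean was at percentile 97.8. Peaks at Rhebl1, 9542 bp upstream, and at Prkag1, past the far end of the gene, made up the rest of its 6 peaks in replicate 1 and 4 in replicate 2.

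Setd1a (chr7:127776670-127800122, plus strand) encodes a SET1 methyltransferase of the general COMPASS complex. It was the only catalytic gene with no annotated noncoding start in its domain. All 5 of its starts were marked. One peak lay over the start, 1332 bp wide with a fold of 40.92 in replicate 1 and 1175 bp with a fold of 14.75 in replicate 2. Another lay wholly inside the gene, with folds of 40.54 and 12.66. The joined domain was 2656 bp wide in replicate 1 and 2433 bp in replicate 2. One more peak within 10 kb covered the start of Orai3, a calcium channel gene 6855 bp upstream.

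Setd1b (chr5:123142193-123168629, plus strand), the paralogue of Setd1a, had the widest domain of the 10. It was 9608 bp wide in replicate 1 and 5845 bp in replicate 2 (7726.5 ± 2660.8 bp, SD, n = 2), at percentile 99.8 of the marked genes. Most of this width lay upstream of the gene. The domain reached 6451 bp upstream and 3156 bp downstream in replicate 1, and 3161 bp upstream and 2683 bp downstream in replicate 2. The upstream peaks covered starts of 3 lincRNA genes in replicate 1: AI480526 at 527 bp, 4932422M17Rik at 3262 bp and Gm38102 at 6432 bp. Their folds, 23.73 and 23.35, were below the 43.53 of the peak inside the gene, which covered another annotated start of Setd1b. In replicate 2 the farthest of these peaks (fold 7.83) was too far from the others to be joined. The pooled list joined it, for a domain of 9855 bp.

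The gene also had a peak inside its body in both replicates, from 7630 to 9441 bp with a fold of 13.45 in replicate 1 and from 7759 to 9013 bp with a fold of 4.7 in replicate 2. The nearest annotated start was its own, 6866 bp away in replicate 1. No other gene of the set had, in both replicates, a peak this far from the nearest annotated start where that start was its own. Peaks at Rhof lay at the upstream limit of the 10 kb.

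**Figure D1:**
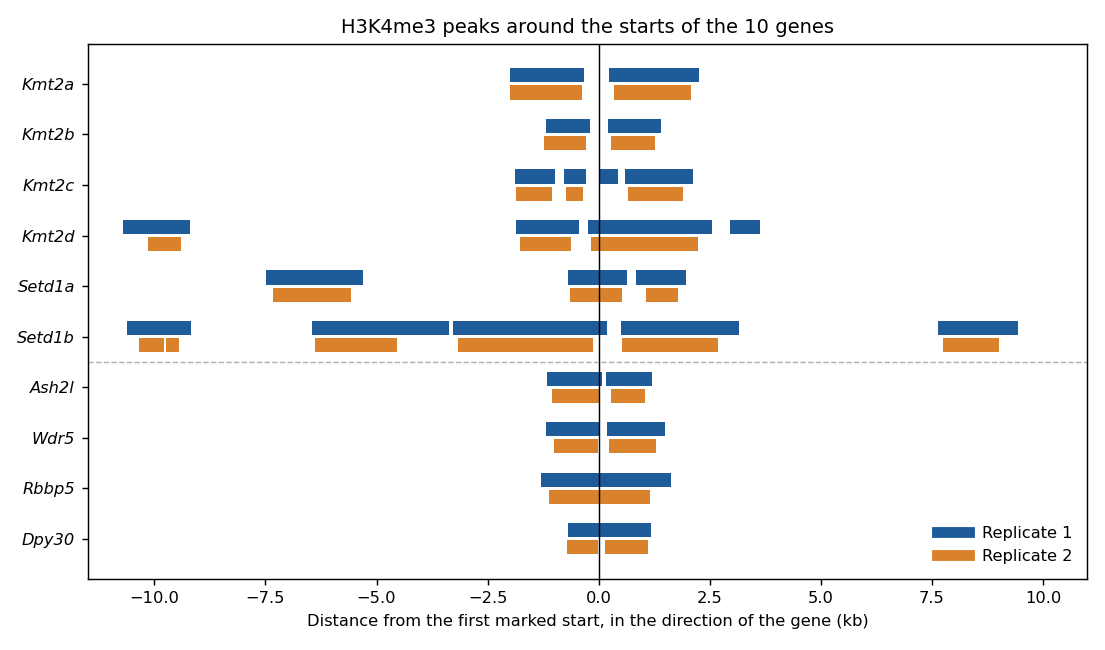
Peaks of replicate 1 (upper, blue) and replicate 2 (lower, orange) by distance in kb from the first marked start of each gene, read in the direction of the gene, with the catalytic genes above the dashed line and the core genes below. The starts of Kmt2a, Kmt2b and Kmt2c lie in a gap in both replicates, Setd1b extends farthest upstream, and peaks near starts at the far ends of Kmt2b and Kmt2d are outside the drawn range.

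Of the core genes, Ash2l encodes the subunit that with Rbbp5 stimulates the SET domain (chr8:25815996-25847694, minus strand). Its 5′ end carried no peak. The first marked start was 6907 bp into the gene, and 6 of its 11 starts were marked. A peak of 1242 bp with a fold of 45.4 in replicate 1 and of 1079 bp with a fold of 16.84 in replicate 2 ended just past this start. A second peak inside the gene had folds of 34.75 and 13.57. This was the only gene of the 10 whose higher peak had its summit upstream of the first marked start. The joined domain was 2381 bp wide in replicate 1 and 2087 bp in replicate 2.

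Wdr5 encodes the WD-repeat subunit that binds histone H3 and the MLL enzymes (chr2:27515157-27536535, plus strand). It had 2 peaks, divided by 171 bp in replicate 1 and 263 bp in replicate 2. The upstream peak ended 18 bp past the start in replicate 1 and 25 bp before it in replicate 2. The downstream peak had folds of 48.76 and 20.23, and the upstream peak 22.23 and 8.88, with no annotated noncoding gene there. The joined domain was 2676 bp wide in replicate 1 and 2287 bp in replicate 2.

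Rbbp5, the subunit that joins Ash2l to the enzyme (chr1:132477365-132505659, plus strand), had 1 peak in every list. It ran from 1308 bp upstream to 1628 bp downstream in replicate 1, and from 1126 bp upstream to 1160 bp downstream in replicate 2. Its folds of 53.43 and 22.32 were at percentiles 89.5 and 89.37 of the 2 lists, the highest mean rank of the 10 genes. The same peak took in the start of 6030442K20Rik, a noncoding gene on the opposite strand 301 bp upstream. At 2612 ± 459.6 bp (SD, n = 2) this single peak was wider than the widest peak of every catalytic gene but Setd1b, although the Kmt2d peak, 2603 ± 287.1 bp, did not differ from it beyond the spread between replicates.

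Dpy30 encodes the small subunit that binds Ash2l (chr17:74299474-74323944, minus strand). Its 5′ end carried no peak, and 5 of its 6 starts were marked, the first of them 7481 bp into the gene. Replicate 1 had 1 peak of 1864 bp with a fold of 50.63. In replicate 2 it was divided by a gap of 169 bp at the start into a peak of 950 bp with a fold of 19.58 and one of 705 bp with a fold of 7.18. The widest peak therefore differed strongly between replicates (1407 ± 646.3 bp, SD, n = 2) and the joined domain hardly at all (1864 and 1824 bp). Marked genes with no peak in either replicate at the 5′ end of the gene made up 5.70% of the background, and the set had 2 of 10, both of them core genes.

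With gaps of up to 1 kb joined, domains were wider at the catalytic genes in the median, though the groups overlapped. Both the amount and the direction of this difference depended on the joining distance. The joined width was above the median of marked genes, 1946.5 bp, at 9 of 10 genes, all 6 catalytic genes and 3 core genes, with Dpy30 below it. The median was 3460.25 bp over the catalytic and 2357.75 bp over the core genes, a difference of 1102.5 bp. No width divided the groups, since Kmt2b (2540.5 bp) and Setd1a (2544.5 bp) were narrower than Rbbp5 (2612 bp). With single peaks the medians were 1642 and 1291 bp against 1473.5 bp for marked genes, a difference of 351 bp that was 201.5 bp in replicate 1 and 436 bp in replicate 2. Only Kmt2a, Kmt2d, Setd1b and Rbbp5 were then above the marked median.

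A joined domain was 2.115 times as wide as its widest peak in the median over the catalytic genes, 1.618 times over the core genes and 1.164 times over marked genes. The bases of the domain that lay in peaks, gaps left out, had medians of 2903 bp, 2165.5 bp and 1811.5 bp. When only gaps of up to 500 bp were joined, the difference in medians was −27.25 bp, so that its direction turned, and with gaps of up to 3000 bp it was 1666 bp. Without Setd1b, and with gaps of up to 1 kb joined, it was 387.75 bp.

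**Figure D2:**
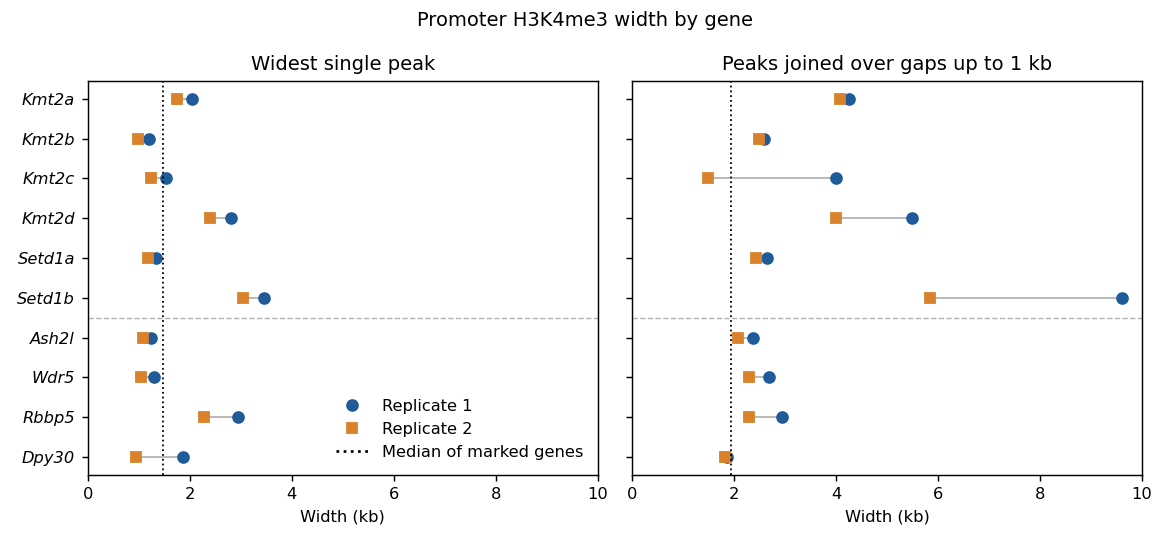
Width in kb of the widest single promoter peak (left) and of the domain of peaks joined over gaps up to 1 kb (right), in replicate 1 (circles) and replicate 2 (squares), with the median of marked genes dotted. Joining moves Kmt2a from 2042 and 1752 bp to 4264 and 4086 bp, while Rbbp5 stays at 2937 and 2287 bp, and Kmt2c is joined across its start in replicate 1 only.

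The order of the joined widths ran from Setd1b through Kmt2d, Kmt2a, Kmt2c, Rbbp5, Setd1a, Kmt2b, Wdr5 and Ash2l to Dpy30. Setd1b at 5845 bp in its narrower replicate was above every value of the other 9 genes, whose highest was 5491 bp for Kmt2d. The replicates of Kmt2d and Kmt2a overlapped, and those of Kmt2c ran from below Dpy30 (1496 bp) to near Kmt2d (3995 bp). From Rbbp5 through Setd1a, Kmt2b and Wdr5 to Ash2l, each gene and the next in this order did not differ beyond their spread. Dpy30 was below both replicates of Ash2l. Every gene was wider in replicate 1. The ratio of replicate 1 to replicate 2 had a median of 1.231 over the catalytic and 1.155 over the core genes, beside 1.19 over marked genes.

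The number of peaks within 10 kb was higher at the catalytic genes, with a median of 3.25 against 1.75 at core genes and 2 at marked genes. It was 2 in both replicates at Kmt2a, 3 and 3 at Kmt2b, 4 and 3 at Kmt2c, 6 and 4 at Kmt2d, 3 and 3 at Setd1a and 5 and 6 at Setd1b. Ash2l and Wdr5 had 2 in both replicates, Rbbp5 had 1 and Dpy30 had 1 and 2. At least 4 peaks in both replicates were found at 4.97% of marked genes and at 2 of these 10, Kmt2d and Setd1b. Many of the extra peaks covered the starts of neighbouring genes. Counting only peaks whose nearest annotated start was a start of the same gene, the medians were 1.5 and 1.75, so that the difference turned to −0.25. Counting against protein-coding starts alone it was 0.5.

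The noncoding starts beside the catalytic genes lie in the same domains. At least 1 noncoding start fell in the domain of either replicate at 6 of 10 genes, 5 catalytic and 1 core, against 14.4% of marked genes. No domain held the start of another coding gene. A wider domain has more room for such starts, and the part of width in these counts was not tested.

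By fold, the order of the groups was the other way round. The fold is the authors' value of each peak and is used only as a rank within a list. The fold of the highest promoter peak had a median percentile of 65.18 over the catalytic genes and 80.41 over the core genes, beside 51.85 over marked genes. The difference was −15.35 in replicate 1 and −15.11 in replicate 2. The groups overlapped: Kmt2b at percentile 86.8 and Kmt2a at 86.19 were above Dpy30 (80.8), Wdr5 (80.02) and Ash2l (66.44), and Rbbp5 at 89.44 was highest. Kmt2c at 43.76 was the only gene below 50. Setd1a was at 53.84, Setd1b at 64 and Kmt2d at 66.35. The summit of the highest peak was downstream of the first marked start in both replicates at 9 of 10 genes, close to the 79.2% of marked genes.

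**Figure D3:**
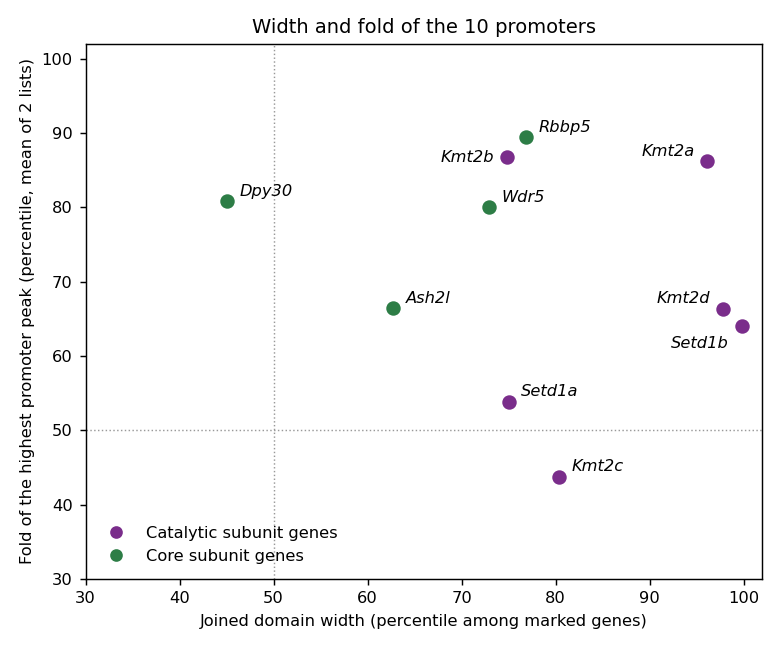
Percentile of the joined domain width among marked genes (x axis) against the percentile of the fold of the highest promoter peak, as the mean over the lists of both replicates (y axis), with dotted lines at 50. Setd1b, Kmt2d and Kmt2a sit at the right, at width percentiles 99.8, 97.8 and 96.1, Dpy30 is the only gene left of 50, and Kmt2c the only one under 50 in fold.

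The starts with no peak on them were rich in GC. A first marked start without a peak on it in either replicate was found at 29.5% of marked genes and at 3 of the 10, all catalytic, a share near the background. In the 301 bp around the first marked start, GC was 79.4% at Kmt2a and 80.7% at both Kmt2b and Kmt2c. It was 74.1% at Setd1b, 68.8% at Dpy30 and 67.1% at Wdr5, where replicate 1 covered the start and replicate 2 did not. It was 61.1% at Ash2l, 60.5% at Kmt2d, 53.2% at Rbbp5 and 51.5% at Setd1a, all covered in both replicates. The 6 genes with a bare start in at least 1 replicate thus had higher GC than the 4 others, with no overlap. The same order held over marked genes, with a median of 59.8% at the 5710 starts covered in both replicates, 66.6% at 1958 covered in 1 and 71.8% at 3201 covered in neither.

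The gaps at bare starts were also richer in GC than the peaks beside them. Gaps away from a bare start, and gaps at other marked genes, were not measured. At Kmt2a the gap was 547 bp with 78.8% GC in replicate 1 and 702 bp with 77.9% in replicate 2, between peaks of 57.7% and 59.3% in replicate 1. At Kmt2b it was 404 bp with 81.4% and 566 bp with 78.6%, between peaks of 55.1% and 59.5% in replicate 1. At Kmt2c the gap at the start was 316 bp with 89.6% in replicate 1, the stretch that holds the sequence printed above. The peaks beside it were themselves higher in GC, at 70.1% and 68.2%. Replicate 2 left further gaps at the starts of Setd1b (645 bp, 78.1% GC), Wdr5 (263 bp, 79.1%) and Dpy30 (169 bp, 71%). Coverage by reads cannot be seen in peak lists, and the part of base composition in the gaps, and so in the joined widths, was not tested.

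**Figure D4:**
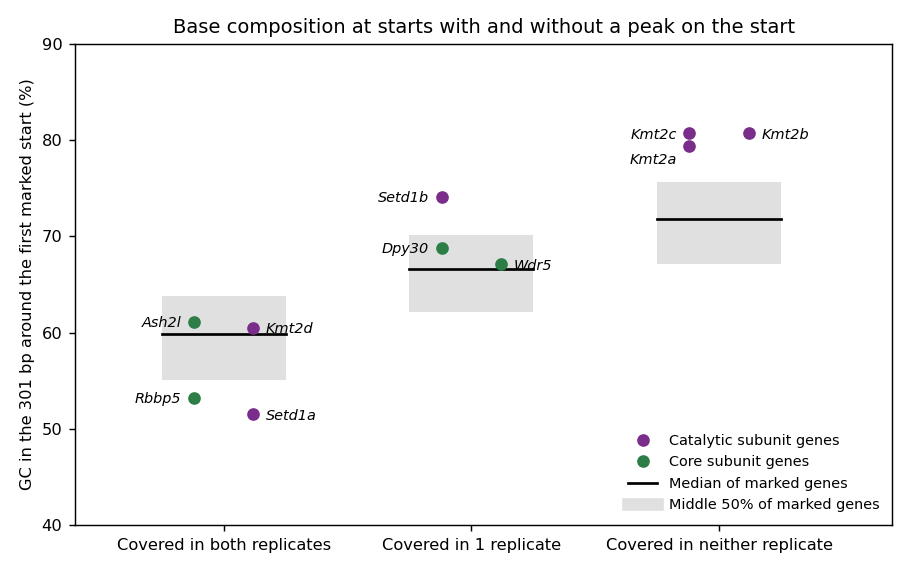
GC percentage in the 301 bp around the first marked start (y axis), by whether a peak lay on the start in both, 1 or neither replicate (x axis). Points are the 10 genes, lines the medians of marked genes (59.8%, 66.6% and 71.8%) and grey boxes their middle 50%, and the points of Kmt2a, Kmt2b and Kmt2c lie above the box of their class.

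Over the wider 1 kb on either side of the first marked start, the CpG observed/expected ratio, which compares the CpG count with that given by the C and G content, was above the median of marked genes (0.632) at 9 of 10 genes. It was highest at Kmt2c, 0.949, at percentile 98.3, and lowest at Wdr5, 0.588. Setd1a had 0.821, Setd1b 0.778, Kmt2a 0.72, Kmt2b 0.717 and Kmt2d 0.657, and among core genes Dpy30 had 0.759, Ash2l 0.715 and Rbbp5 0.658. The groups overlapped in this ratio, with medians of 0.749 and 0.687. GC content over the same window had a median of 65.2% at the catalytic and 52.9% at the core genes, beside 53.7% at marked genes. The groups overlapped in GC too, since Setd1a (57.8%) was below Wdr5 (58.9%). At the unmarked 5′ ends the ratio was 0.359 for Ash2l and 0.174 for Dpy30, lower than at their marked starts.

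Promoter entries of RefSeq were matched for 7 of the 10 genes, 10 entries in all, 4 of them for Dpy30. Kmt2b, Setd1b and Ash2l had none matched. In the 300 bases from 250 before to 50 after each RefSeq start, searched on both strands, the GC box letters GGGCGG were in 5 of 10 entries against 46.2% of 21263 coding promoters. These entries belonged to Kmt2a, Kmt2c, Kmt2d, Wdr5 and Dpy30. The Dpy30 entries at its marked starts overlap each other, so the entries are not separate promoters and the shares are not strictly alike. CCAAT was in 1 entry, the unmarked 5′ end of Dpy30, against 38.2%. TATAAA (12.6% of promoters), CCGGAAG (11.6%), ATGGCGG (5.25%) and GCATGCG (4.44%) were in none of the 10 entries, which says only that these letters are not in these windows.

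The partners of the enzymes, genes listed as H3K4 demethylases of any methylation state, other SET or MLL family genes and readers of the mark were described in the same way. All 12 genes of complex-specific partners were marked, with a median joined width of 2322.5 bp. The widest was Pagr1a, a partner in the MLL3 and MLL4 complexes, with 4219 and 4152 bp in the replicates. Of 8 genes listed as H3K4 demethylases, 6 were marked in both replicates (median 2183.5 bp), with Kdm2b the widest at 3620 and 3015 bp. Kdm5b and Kdm5d had a peak in replicate 1 only, with folds of 7.1 and 7.85. Kdm5d lies on chromosome Y, and the sex of the cells is unknown or uncollected. Of 8 other SET or MLL family genes 7 were marked (median 1720.5 bp), and Smyd1, a muscle gene, was marked in neither replicate.

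Kmt2e (MLL5), a relative of the Kmt2 enzymes, had a domain of 6605 bp in replicate 1 and 5759 bp in replicate 2, at percentile 99.4 of width and 99.8 of fold. Among the 10 genes only Setd1b had a larger mean width, though its replicates overlapped those of Kmt2e, and none had so high a rank of fold. All 12 genes of H3K4me3 readers were marked (median 2649 bp), with Ing1 the widest at 5144 and 4889 bp. The median of the catalytic genes, 3460.25 bp, was thus above the median of each of these groups. That of the core genes, 2357.75 bp, was below the readers and above the other 3 groups.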

How the data were processed

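Chromatin immunoprecipitation for H3K4me3 was sequenced in 2 libraries of 1 group. The texts that accompany the deposited lists give a pseudoreplicated list for each replicate, another for both replicates pooled, and a replicated list. The assembly was mm10, per the labels; the aligner, the peak caller and its cut-offs are not given in these sources. Each deposited peak carries a fold (a ratio whose denominator is not stated), −log10 p and −log10 q values and a display score that was not used. Reads per peak are not part of the lists, so depth and its precision are unknown.

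Starts came from GENCODE M21, and GRCm38.p6 gave base composition; 0 peak ends lay beyond a chromosome. With Python 3.11.15 and pysam 0.24.0, a gene counted as marked if both replicates had a peak overlapping by at least 1 bp the 1000 bp on either side of any start. Peaks up to 1000 bp apart were joined, and the widest domain or peak touching a window was measured per replicate and averaged. Fold percentiles are among marked genes of the same list. No test was made, because there is 1 group of 2 samples and genes of a list are not replicates. The genes and lists were chosen with earlier results of these data known. All 10 genes are named, with the pathway genes not marked in both replicates, the widest of each pathway group, and genes that share a domain or start nearby; Csf1r, Spi1, Lyz2 and Klf1, and neighbours farther off, were added after their values were seen. Alternatives were other joining distances, windows, starts, lists, peak subsets and single replicates. Joining and domain widths were checked on simulated peaks, and the overlap search against a direct scan of the list of replicate 1.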

Additional observations from a re-analysis of the deposited data

How the results depend on the processing

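Differences are catalytic minus core medians. For the joined width, 1102.5 bp as reported, the difference was 351 bp with no joining, −27.25 bp with joining over 500 bp, 1666 bp over 3000 bp, 1785 bp in the pooled and 1737 bp in the replicated list, and 387.75 bp without Setd1b. From single replicates it was 1062 to 1601 bp. For the widest peak, 351 bp as reported, it was −251.5 bp with the 5′ end of the gene as the only start, which leaves 2 core genes, and 96 bp without Setd1b. From single replicates it was 201.5 to 436 bp. The number of peaks, 1.5 as reported, gave 0.75 within 5 kb, −0.25 for peaks nearest to a start of the same gene and 0.5 for peaks nearest to its coding start. The fold percentile, −15.23 as reported, was −19.49 with the 5′ end only, −15.61 in the pooled and −16.04 in the replicated list. The direction of the width and peak-count differences thus turned in 3 alternatives. With joining over 500 bp the core median stayed at 2357.75 bp and the catalytic median fell from 3460.25 to 2330.5 bp. With the 5′ end only, the catalytic widest peak stayed at 1642 bp in the median. The core median rose from 1291 to 1893.5 bp, with 2 genes left. For peaks nearest to a start of the same gene, the core median stayed at 1.75 and the catalytic median fell from 3.25 to 1.5. The number of marked genes, 10, fell to 8 with the 5′ end only (Ash2l and Dpy30) and to 8 when at least 50% of a peak had to lie in the window (Kmt2d and Setd1b). Leaving out Setd1b or Rbbp5, counting covered bases and the coding-start count were chosen after seeing the data. No paired analysis was possible because there is 1 group.

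With 2 replicates an SD is a rough measure of spread, and it is not stated whether the replicates were different animals. Peak edges depend on depth, which is unknown.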
